A study of Mus musculus with 6 samples.

Results

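The microRNAs mmu-miR-320, mmu-miR-484, mmu-miR-877*, mmu-miR-1224 and mmu-miR-702, whose hairpins are made without cleavage by Drosha and its partner DGCR8, were followed in mouse oocytes. They were chosen by name, and all 5 were found among the 577 microRNA entries on the arrays. MicroRNA abundance had been measured with 6 one-colour microarrays, 2 for each of 3 groups of pooled C57BL/6 oocytes. Aged large oocytes were 60 to 80 µm across and came from mice of 41 to 43 weeks, although the sample descriptions say 42 to 44 weeks. Young large oocytes, also 60 to 80 µm across, were taken from mice of 6 to 8 weeks. Young small oocytes came from mice of 6 to 8 weeks, were 20 to 50 µm across, and are called non-growing in the titles. The series text has each sample run in duplicate and names no separate animals or pools, so the p-values below speak only of the spread from array to array, and that spread may be technical.

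Most microRNAs are cut out of a long transcript by the nuclear enzyme Drosha with DGCR8, and the freed hairpin is then cut by Dicer. Mirtrons skip the first cut: splicing releases a short intron that folds into a hairpin, and Dicer finishes it. The miR-320 and miR-484 hairpins form at the very start of a short transcript, keep its cap and also go to Dicer directly. In mouse oocytes loss of Dicer blocks meiosis whereas loss of DGCR8 is tolerated, which has made small RNAs that need Dicer alone a subject of interest in this cell.

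The mature sequences of 4 of the 5 microRNAs were found in RefSeq (GRCm38.p6) and are printed 5′ to 3′ with the seed, bases 2 to 8, in capitals, because the seed sets the targets and the composition differs so much between arms. The array names of these entries carry no arm. From the names of later miRBase releases, miR-877* was read as the 3′ arm, miR-1224 as the 5′ arm and miR-702 as the 3′ arm of their hairpins. These readings were not checked against probe sequences, and the seeds and compositions below rest on it. The 5′ arm of miR-877, a separate entry on the arrays, is shown for comparison.
miR-484: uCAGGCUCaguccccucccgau
miR-877*: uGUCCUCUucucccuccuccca
miR-877: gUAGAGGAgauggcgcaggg
miR-1224: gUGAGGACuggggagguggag
miR-702: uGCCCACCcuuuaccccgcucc

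No 2 of these shared a seed, and none of their seeds occurred in another of the 1738 mature sequences of the RefSeq table. miR-877* was 90.9% C and U, a share reached by 0.115% of those sequences, against a median of 50.0%. miR-702 was 81.8% C and U and miR-484 was 68.2%. miR-1224 was the opposite, with 61.9% G against a median of 26.1%.

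The hairpins of the 3 mirtron-type microRNAs are printed because a mirtron is an intron, and introns open with GU and close with AG. Capitals mark the mature arms.
Mir877: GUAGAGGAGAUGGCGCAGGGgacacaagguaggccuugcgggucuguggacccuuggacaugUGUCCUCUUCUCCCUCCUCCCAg
Mir1224: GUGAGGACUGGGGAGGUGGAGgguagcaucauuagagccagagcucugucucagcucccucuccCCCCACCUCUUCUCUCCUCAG
Mir702: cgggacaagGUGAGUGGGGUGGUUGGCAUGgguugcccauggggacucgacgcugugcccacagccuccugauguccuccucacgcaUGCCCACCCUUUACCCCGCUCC

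The Mir877 hairpin (chr17:35960730-35960814, minus strand) lay within the Abcf1 gene, which encodes a translation factor. The Mir1224 hairpin (chr16:20604452-20604536, plus strand) lay within Vwa5b2, and the Mir702 hairpin (chr5:136991433-136991541, plus strand) within Plod3, which encodes a collagen-modifying enzyme. Each had the strand of its host gene. Mir877 and Mir1224 began with GU and ended with AG over their whole length, as 2.99% of the 1005 hairpins in the table did. Mir702 did not, although its 5′ arm opened with GU. Mir484 (chr16:14159626-14159692, plus strand) and Mir320 lay outside protein-coding genes, next to Marf1 and Nde1 and next to Polr3d and Piwil2.

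Signals are given as deposited and after scaling. Scaling divided each array by the 75th percentile of the 56 microRNAs detected on all 6 arrays, which are the yardstick for every scaled value. The arrays differed in brightness, with factors of 0.954 and 1.06 for aged large, 1.94 and 1.48 for young large, and 0.582 and 0.589 for young small oocytes. Over these pools, fewer oocytes or less RNA per oocyte cannot be told apart from a lower level of the microRNA. In young large oocytes 6 of 94 microRNAs detected on both arrays lay at least 2-fold apart between array 1 and array 2, and miR-484 and miR-702 were 2 of those 6. No entry did so in the other groups. For the lists, an entry was counted as detected if any array called it so. By that count all 6 listed microRNAs of the early-embryo miR-290 to miR-295 cluster were detected. So were 3 of 6 granulosa cell entries (miR-21, miR-212 and miR-202-3p) and 1 of 7 blood cell entries (miR-223). Called by every array were 3 of the cluster entries, 2 of the granulosa entries and 0 of the blood entries. Of all 577 entries, 108 were called by some array and 56 by every array. None of 5 stroma and muscle entries or 2 endothelial entries was detected.

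miR-320, the best studied of the capped hairpins, was detected on all 6 arrays. Its scaled signal was 22.0 and 17.8 in aged large oocytes, 11.2 and 11.7 in young large oocytes, and 13.4 and 10.8 in young small oocytes. Both aged arrays lay above the other 4, while young large and young small oocytes overlapped. As deposited, its signal was 21.0 and 18.9 in aged large, 21.8 and 17.4 in young large, and 7.81 and 6.39 in young small oocytes. The aged and young large arrays thus overlapped before scaling.

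miR-484, the other capped hairpin, was detected on the fewest arrays of the 5. The scanner software called it detected on 1 of 2 aged large, 2 of 2 young large and 0 of 2 young small arrays. Its scaled signal was 5.58 and 7.13 in aged large, 3.33 and 7.31 in young large, and 8.86 and 8.18 in young small oocytes. The group in which it was never called detected had the highest scaled values, because the small-oocyte arrays have the smallest factors. Its deposited signal there was 5.16 and 4.82 with errors of 1.53 and 1.43.

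miR-877*, the 3′ arm of the Abcf1 mirtron, was detected on all 6 arrays. Its scaled signal was 9.40 and 9.20 in aged large, 4.63 and 7.61 in young large, and 12.1 and 12.7 in young small oocytes. The 3 groups did not overlap. Small oocytes were highest, as for 22 of the 56 microRNAs detected on all 6 arrays (39.3%). Young large oocytes were lowest, as for 19 of the 56 (33.9%). As deposited, the signal was 8.97 and 9.75 in aged large, 8.99 and 11.3 in young large, and 7.02 and 7.49 in young small oocytes. Its highest deposited value was 1.61 times its lowest, and only 1 of the 56 microRNAs detected on all 6 arrays had a smaller ratio; their median was 2.83.

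The 5′ arm, miR-877, was detected on no array. Its deposited signal was -0.134 and -0.234 in aged large, 0.180 and -0.862 in young large, and -1.08 and -1.41 in young small oocytes, with errors between 0.981 and 1.18. On these arrays the arm that carries the star, the mark once given to the rarer strand, was thus the one called detected.

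**Figure D1:**
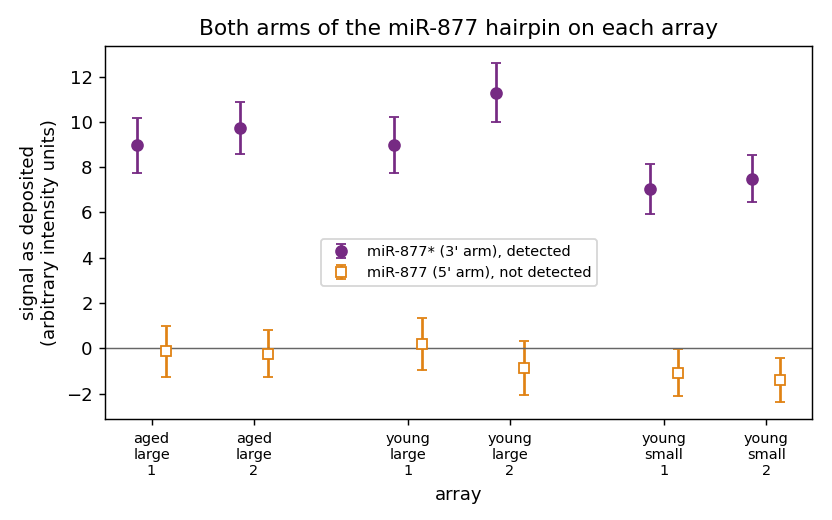
Deposited signal (vertical axis, arbitrary intensity units) of miR-877* (filled circles) and miR-877 (open squares) on each of the 6 arrays (horizontal axis), with the deposited error of each signal as bars. miR-877* stayed between 7.02 and 11.3 on every array, and miR-877 between -1.41 and 0.180.

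miR-1224, the 5′ arm of the Vwa5b2 mirtron, was bright on all 6 arrays. Its scaled signal was 227 and 215 in aged large, 163 and 185 in young large, and 222 and 209 in young small oocytes. The young large arrays gave its 2 lowest values, and aged large and young small oocytes overlapped. As deposited, the order was different: 216 and 228 in aged large, 316 and 274 in young large, and 129 and 123 in young small oocytes. Each deposited value was between 14.7 and 15.4 times its error, and the order of the groups depended on whether the arrays were scaled.

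miR-702, the Plod3 microRNA, was detected on all 6 arrays. Its scaled signal was 8.82 and 10.04 in aged large, 4.44 and 12.0 in young large, and 14.1 and 11.3 in young small oocytes. The young large arrays were 2.71-fold apart and spanned the aged group, so no group could be ordered against young large oocytes. The deposited values were 8.42 and 10.6 in aged large, 8.63 and 17.9 in young large, and 8.21 and 6.65 in young small oocytes.

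**Figure D2:**
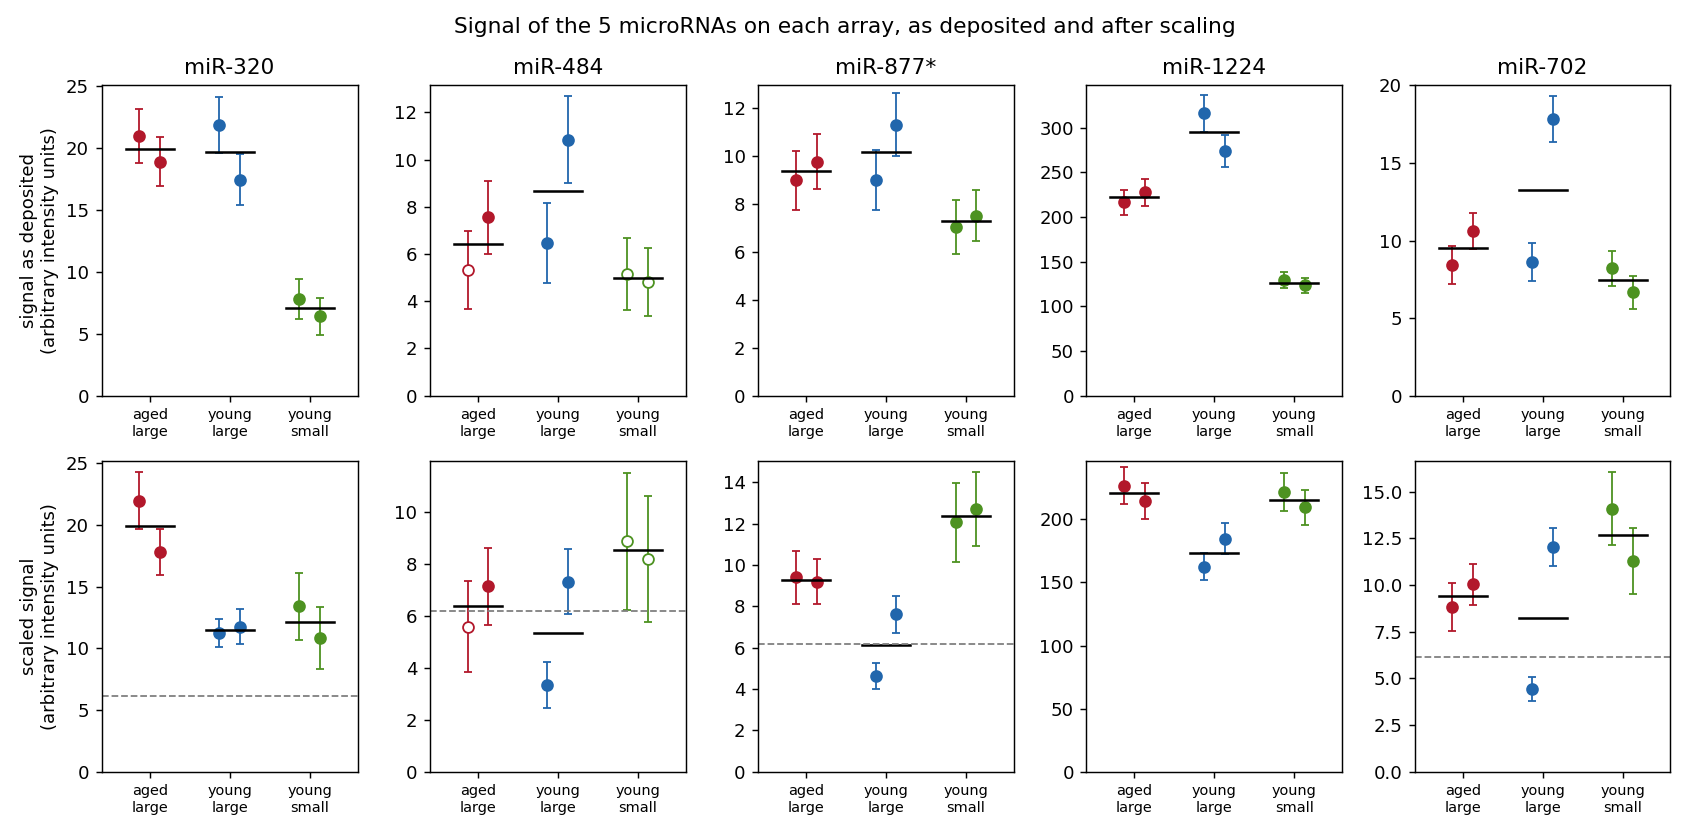
Signal of each microRNA on each array (vertical axes from 0, arbitrary intensity units), as deposited in the upper row and scaled in the lower row; bars are the deposited error of the signal, black lines are group means, open circles were called not detected, and the dashed line is the floor of 6.17. Young large oocytes were brightest as deposited in 4 panels by their means, and lowest by their means after scaling in all 5.

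For the tests, scaled signals were raised to a floor of 6.17 (on each array the lowest detected scaled signal was found, and the highest of the 6 was taken), put on the log2 scale and fitted with limma over all 6 arrays. Aged and young large oocytes were compared first, as the series text does for reproductive ageing. miR-320 rose: its scaled signal averaged 19.9 ± 2.95 in aged and 11.5 ± 0.357 in young large oocytes (SD, n = 2 each), and the fitted log2 change was 0.78 ± 0.15 (SE) with an adjusted p of 0.0173 by limma. miR-877* rose, with 9.30 ± 0.145 in aged and 6.12 ± 2.11 in young large oocytes (SD, n = 2 each) and a fitted log2 change of 0.44 ± 0.11 (SE), at an adjusted p of 0.0366 by limma. miR-1224 rose, with 221 ± 8.55 in aged and 174 ± 15.7 in young large oocytes (SD, n = 2 each) and a fitted log2 change of 0.35 ± 0.08 (SE), at an adjusted p of 0.0295 by limma. miR-484 (-0.02 ± 0.12, SE) and miR-702 (0.13 ± 0.35, SE) missed the threshold.

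These 3 of 5 stand against 38 of 81 microRNAs called (46.9%), 20 of them higher (24.7%) and 18 lower (22.2%) in aged oocytes, and in 80.2% of those tested the scaled signals of the groups did not overlap. Among the 5, miR-320, miR-877* and miR-1224 did not overlap. For miR-877*, miR-702 and miR-484, young large array 1 lay under the floor, and for miR-484 so did aged large array 1; a floored value narrows the standard error. On the deposited scale the log2 difference was 0.03 for miR-320, -0.11 for miR-877* and -0.41 for miR-1224, beside a median of -0.57 over all 81. The rises are therefore relative to the other microRNAs and are not rises of the deposited signal.

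Each of these calls was lost without at least 1 array, with changes of the same direction. miR-320 lost its call without aged large array 1 (limma, adjusted p = 0.0912), without young large array 1 (limma, adjusted p = 0.0685) or without young large array 2 (limma, adjusted p = 0.0704), where its log2 change was 0.63, 0.75 and 0.82, and over every alternative run its adjusted p lay between 0.00403 and 0.920. miR-877* kept its call without young large array 1, with a log2 change of 0.29, or without young large array 2, and lost it, with changes of 0.42 to 0.48, without either aged large or either young small array (limma, adjusted p from 0.0811 to 0.172; 0.00899 to 0.644 over every alternative run). miR-1224 kept its call only without young large array 2 (limma, adjusted p = 0.0239), lost it without any 1 of the other 5 arrays, with changes of 0.26 to 0.39, and lay between 0.00856 and 0.782 over every alternative run. miR-702 had -0.35 without young large array 1.

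Growth was addressed by comparing large with small oocytes of young mice. miR-877* fell: its scaled signal was 6.12 ± 2.11 in large and 12.4 ± 0.464 in small oocytes (SD, n = 2 each), and the fitted log2 change was -0.85 ± 0.11 (SE) with an adjusted p of 0.00432 by limma. miR-1224 fell, with 174 ± 15.7 in large and 216 ± 8.76 in small oocytes (SD, n = 2 each) and a fitted log2 change of -0.31 ± 0.08 (SE), at an adjusted p of 0.0339 by limma. miR-320 had -0.07 ± 0.15 (SE) and miR-702 had -0.55 ± 0.36 (SE); neither passed. miR-484 had -0.34 ± 0.12 (SE; limma, adjusted p = 0.0806) and did not pass. As neither small array called miR-484 detected, that value sets large oocytes against readings at the detection limit and is not a fold between measured levels.

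Of 79 microRNAs tested 39 passed (49.4%), 19 of them higher (24.1%) and 20 lower (25.3%) in large oocytes, so 2 calls among 5 is close to that share. The scaled groups did not overlap in 83.5% of those tested, and among the 5 they did not overlap for miR-877*, miR-1224 and miR-484. On the deposited scale the 4 microRNAs detected on all arrays were higher in large oocytes without overlap, by log2 differences of 1.47 for miR-320, 1.22 for miR-1224, 0.75 for miR-702 and 0.47 for miR-877*, beside a median of 1.44 over all 79. Without scaling 90 of 93 microRNAs tested passed, all of them higher in large oocytes, so a rise on this scale does not set these 4 apart. miR-484 read 6.47 and 10.8 in large oocytes, against 5.16 and 4.82, not called detected, in small oocytes. The falls of miR-877* and miR-1224 are therefore relative too: their signals were higher in large oocytes by less than the typical microRNA. miR-877* kept its call whichever array was left out (limma, adjusted p from 0.00792 to 0.0499, with -0.70 without young large array 1), and lay between 0.000663 and 0.178 over every alternative run. miR-1224 kept its call only without young large array 2, and lost it without any 1 of the other 5, with changes of -0.38 to -0.22. Over every alternative run its adjusted p by limma lay between 1.29e-07 and 0.815. The lowest of these came without scaling and belongs to a rise of 1.22, not to a fall. miR-702 had -1.03 on the log2 scale without young large array 2 and -0.07 without young large array 1. Its lowest adjusted p over every alternative run, 0.000904 by limma, came without scaling and belongs to a rise of 0.75.

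**Figure D3:**
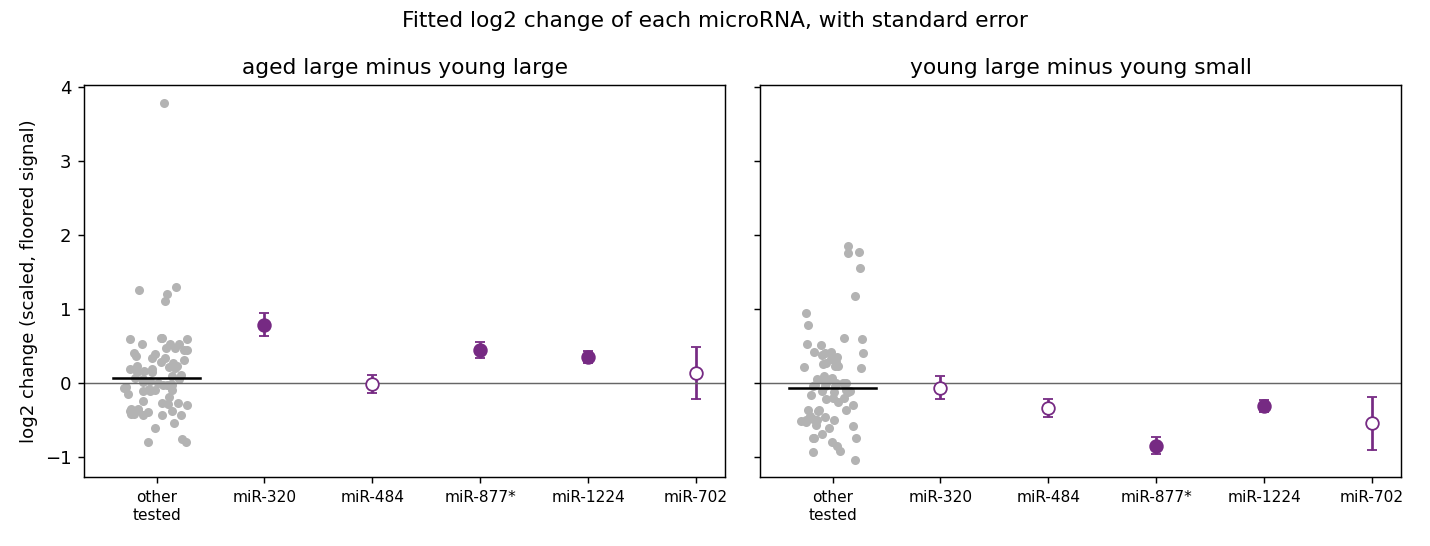
Fitted log2 change (vertical axis) of each microRNA, aged minus young large oocytes at left and young large minus young small oocytes at right; bars are standard errors, filled circles passed an adjusted p of 0.05, grey points are the other microRNAs tested and the black line is the median of all tested. The values for the 5 lie between -0.02 and 0.78 at left and between -0.85 and -0.07 at right.

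The comparisons share the young large arrays, so a low reading there raises the first and lowers the second. Among the 56 microRNAs detected on all 6 arrays, 19 (33.9%) had their 2 lowest values on the young large arrays, miR-877* and miR-1224 among them. Both aged arrays lay above the other 4 for 9 (16.1%), of which miR-320 was 1. The granulosa entry miR-202-3p moved as miR-1224 did, with log2 changes of 0.51 in aged against young large and -0.52 in young large against small oocytes (limma, adjusted p = 0.0377 and 0.0339). The other detected granulosa entries did not pass in either comparison: miR-21 had -0.03 and -0.13, and miR-212 had 0.45 and 0.40. The summed scaled signal of the 6 granulosa entries was 48.5 to 64.7 in aged large, 41.5 to 43.4 in young large and 46.5 to 50.1 in young small oocytes, and miR-132, miR-503 and miR-383 were not detected. The summed signal of the 7 blood entries, nearly all miR-223, was 50.7 to 57.7, 25.01 to 26.3 and 7.93 to 8.70 in the same groups, with miR-451, miR-144 and miR-142-3p not detected. The part of either cell type in the changes of miR-320, miR-877* and miR-1224 was not tested.

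How far the calls depended on the scaling differed by microRNA. In aged against young large oocytes miR-320 was positive under all 7 scalings, from 0.03 to 0.84, and passed under 3. miR-877* was positive under 6 of 7 and passed under 3, with -0.11 when no scaling was used. miR-1224 was positive under 3 of 6, with -0.04 when scaled by 4 hur control entries and -0.07 when scaled by the total signal. The entry miR-720 made up 88.5% to 91.0% of the detected signal on each array. Scaling by the total signal was therefore close to dividing each array by miR-720. In young large against young small oocytes miR-877* was negative under 6 of 7 and passed as a fall under 5. Without scaling it passed as a rise of 0.47 (limma, adjusted p = 0.0338). Over every alternative run its adjusted p by limma lay between 0.000663, a fall under quantile normalization, and 0.178. miR-1224 was negative under 3 of 6, and miR-320 under 2 of 7. Quantile normalization gave miR-1224 one value on all 6 arrays, because it held the same place in the order of signals on each, and so no test. The other scalings moved the median over the tested microRNAs, on the log2 scale, by -0.70 to 0.06 in the first comparison and by 0.02 to 1.30 in the second.

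**Figure D4:**
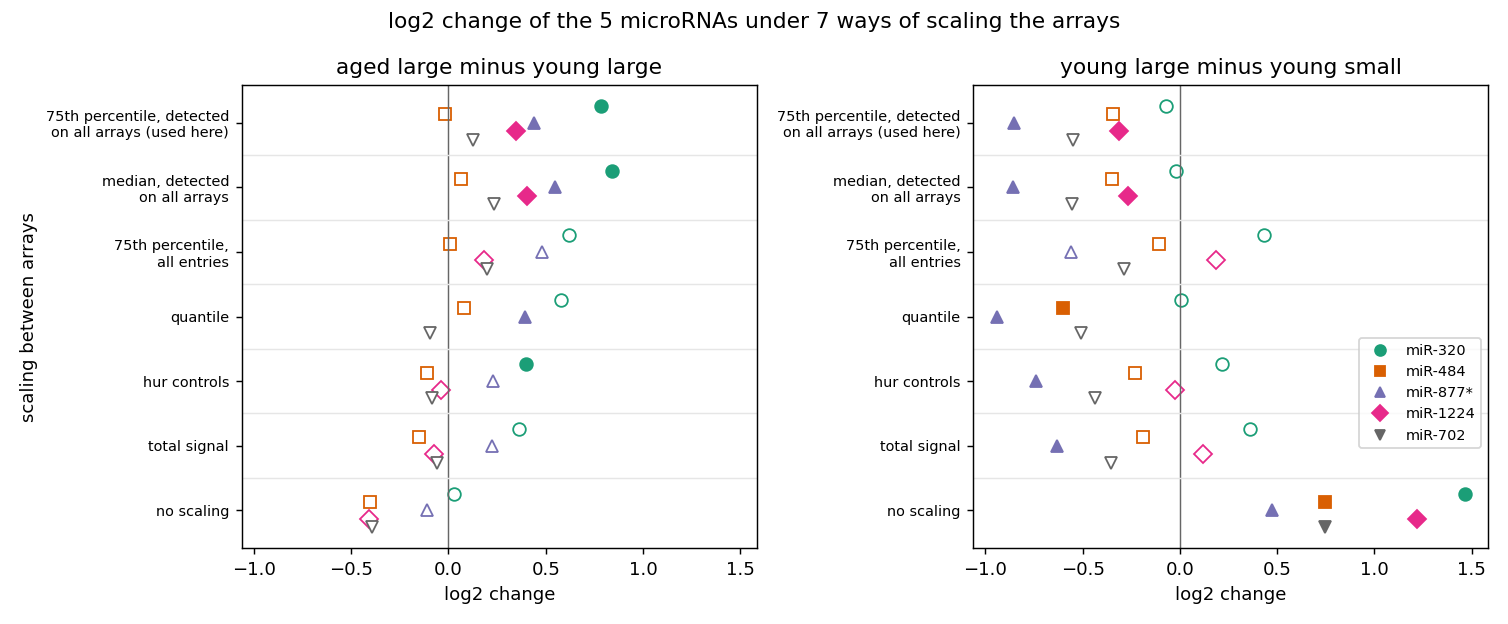
log2 change (horizontal axis) of each microRNA under 7 ways of scaling the arrays (rows), aged minus young large oocytes at left and young large minus young small oocytes at right; filled symbols passed an adjusted p of 0.05. At left miR-320 was right of 0 in every row, and at right miR-877* was left of 0 in every row but that without scaling.

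A ratio of 2 microRNAs within an array needs no scaling, and 4 of the 5 were detected on all 6 arrays and allow it. The log2 ratio of miR-320 to miR-877* was 1.22 and 0.95 in aged large, 1.28 and 0.63 in young large, and 0.15 and -0.23 in young small oocytes. It was higher in young large than in young small oocytes by 0.99 without overlap, and it overlapped between aged and young large oocytes. The log2 ratio of miR-320 to miR-1224 was -3.37 and -3.59 in aged large, -3.86 and -3.98 in young large, and -4.05 and -4.27 in young small oocytes. It was higher by 0.44 in aged than in young large oocytes, and by 0.24 in young large than in young small oocytes, without overlap in either. The log2 ratio of miR-877* to miR-1224 was -4.59 and -4.55 in aged large, -5.14 and -4.60 in young large, and -4.20 and -4.04 in young small oocytes, which put young large oocytes lower by 0.75 than small ones. That ratio was also higher by 0.30 in aged than in young large oocytes. The groups barely missed overlapping, with -4.59 on aged large array 1 and -4.60 on young large array 2. The log2 ratio of miR-320 to miR-702 was higher by 0.72 in young large than in young small oocytes, without overlap. It overlapped between aged and young large oocytes, and the ratios of miR-877* and miR-1224 to miR-702 overlapped in both comparisons. With 2 arrays against 2, an exact two-sided permutation test cannot go below a p of 1 in 3. Each non-overlapping ratio had that value. Across growth, the ratios of miR-320 to miR-877*, miR-1224 and miR-702 and of miR-877* to miR-1224 thus differed without overlap. Ratios between other microRNAs were not counted, and single scaled signals did not overlap in 83.5% of those tested in this comparison. The differences in ratio cannot be put beyond the spread of 4 arrays by this test.

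Over the 6 arrays the log2 scaled signal of miR-877* correlated with that of miR-1224 at r = 0.87 and with that of miR-702 at 0.86, whereas miR-320 correlated with miR-1224 at 0.64, with miR-877* at 0.19 and with miR-702 at 0.08. As deposited, without scaling, miR-320 correlated with miR-1224 at 0.93, with miR-877* at 0.77 and with miR-702 at 0.48. Coefficients of either kind share the brightness or the scaling factor of each array and rest on 6 arrays in 3 groups, so they are descriptions. Among the other 55 microRNAs detected on all arrays, miR-671-5p (r = 0.96), miR-712 (0.83) and let-7c (0.78) were most like miR-320. miR-291b-5p (r = 0.99), miR-92a (0.95) and miR-345-5p (0.94) were most like miR-877*. miR-1224 was most like miR-720, an entry later traced to a transfer RNA fragment (r = 0.98), miR-689 (0.96) and miR-709 (0.93). miR-702 was most like miR-483* (r = 0.99), the mouse herpesvirus entry mghv-miR-M1-2 (0.98) and miR-715 (0.98). In aged against young large oocytes the log2 changes of these entries had standard errors of 0.40, 0.52 and 0.45. That of miR-702 was 0.35, and its young large arrays were 2.71-fold apart. How far gaps between duplicate arrays set these coefficients, and that of miR-877* with miR-702, was not tested.

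Of 3 other entries not made by the usual route that were looked up by name, miR-877, miR-451 and miR-720, only miR-720 was detected. Other such entries on the arrays were not counted. miR-451, whose hairpin is cut by Ago2 in place of Dicer, was not detected on any array, with a highest deposited signal of 1.51. miR-720 rose in aged against young large oocytes, with a log2 change of 0.44 ± 0.10 (SE), and fell in young large against small oocytes, with -0.45 ± 0.10 (SE); limma gave adjusted p-values of 0.0266 and 0.0215. The log2 changes of miR-1224 were 0.35 and -0.31.

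A list of 25 entries that lie in introns but are cut by Drosha was set beside the 5 microRNAs. Of the 25, 14 were called detected by some array and 8 by every array. Only 3 of the 5 are mirtron-type, since miR-320 and miR-484 lie outside protein-coding genes. Of 12 tested in aged against young large oocytes 1 rose and 5 fell, with a median log2 change of -0.22, beside 3 rises, 0 falls and a median of 0.35 for the 5 Drosha-independent microRNAs and 0.06 for all tested. miR-342-3p of the Evl gene rose by 0.52 ± 0.04, and miR-26a of the Ctdsp genes had -0.36 ± 0.05 (SE; limma, adjusted p = 0.00163 and 0.00508). Of 12 tested in young large against small oocytes 7 rose and 2 fell, with a median of 0.31, beside 0 rises, 2 falls and a median of -0.34 for the 5, which is the value of miR-484, and -0.07 for all tested. miR-652 rose by 0.95 ± 0.07 and miR-93 of the Mcm7 gene had -0.69 ± 0.06 (SE; limma, adjusted p = 0.00134 for each). The mirtron-type miR-877*, miR-1224 and miR-702 alone had 0.44, 0.35 and 0.13 in the first comparison and -0.85, -0.31 and -0.55 in the second. The difference between the lists was not tested.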

How the data were processed

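Total RNA was labelled with cyanine 3 and hybridised to mouse microRNA arrays of miRBase release 10.1, and images were read with Agilent Feature Extraction 9.5, per the labels and the submitters' processing notes. Per the file headers, the deposited intensity is a total signal per microRNA on a linear scale, with its error; it is background-subtracted, since 42.3% to 56.0% of entries per array were at or below 0, and not scaled between arrays. The deposited fraction of inlier spots was 90% or more for the 5 microRNAs, and other deposited columns hold a detection call. The deposited series table repeats the intensities with values under 10 set to 0, which removed 16 of the 30 values of these microRNAs. Sequences came from RefSeq, GRCm38.p6, used for sequence and neighbouring genes only.

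Array signals were scaled and floored as described with the results. Tested were microRNAs that both arrays of a compared group detected, without 16 (ageing) and 15 (growth) that lay at the floor on all 6 arrays and have no spread; limma 3.58.1 in R 4.3.3 fitted 1 mean per group, with Benjamini-Hochberg adjustment, a threshold of 0.05, two-sided tests and 3 residual degrees of freedom. The fit was also run on simulated data drawn with 1 noise setting for all microRNAs. The deposited arrays need not share that setting, and no result here rests on that run. The 5 microRNAs, the lists, the tests and the alternatives were chosen with earlier results of these data known. The rule for names took the 5, the 3 entries most like each of the 4 detected on all arrays, by Pearson correlation, and allowed list members past the threshold, of which 4 intron-hosted examples were picked after their values were seen. The cell type markers, miR-451 and miR-877 were named outside that rule. Array number limits the precision. Figures were drawn with matplotlib 3.10.9.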

Additional observations from a re-analysis of the deposited data

How the results depend on the processing

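Of 220 recomputed log2 changes of the 5 microRNAs, 147 kept their direction and side of the threshold, 41 lost the threshold, 2 gained it and 30 changed sign. In aged against young large oocytes, 38 microRNAs were called, and 10 with the 75th percentile of all entries, 62 without scaling, 25 with detection on all 6 arrays and 23 to 34 with 1 array left out, the lowest without young small array 1. Of the 5, 3 were called; 0 were with the 75th percentile of all entries, the total signal or no scaling, 1 was with quantile normalization, hur entries, a lower floor, floor-only entries kept, the series table or only the 4 arrays compared, and 0 to 2 with 1 array left out. In young large against young small oocytes, 39 were called, and 23 with the 75th percentile of all entries, 90 without scaling and 15 to 39 with 1 array left out, the lowest without young small array 1. Of the 5, 2 were called; 0 were with the 75th percentile of all entries, 1 with the total signal, hur entries, a lower floor, floor-only entries kept, the series table or only the 4 arrays compared, 5 (all as rises) without scaling, and 1 to 3 with 1 array left out. The split of higher to lower calls, 20 to 18 and 19 to 20, was 25 to 14 in the first comparison with the median, 6 to 33 and 31 to 4 with the total signal, 5 to 57 and 90 to 0 without scaling, 11 to 19 in the first with quantile normalization, 6 to 28 and 25 to 5 with hur entries, and 23 to 0 in the second with the 75th percentile of all entries. Of the 5, only miR-320 and miR-1224 could be tested with the series table. There miR-320 had 0.14 in aged against young large oocytes (limma, adjusted p = 0.229). Quantile normalization gave no test of miR-1224. The causes of these changes between settings were not tested.

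Sign changes in aged against young large oocytes were these. miR-484 had 0.065 with the median, 0.0104 with the 75th percentile of all entries, 0.0804 with quantile normalization, 0.35 with a lower floor, 0.29 with a pseudocount of 1, 0.0049 with detection as 3 times the error, and -0.14 to 0.10 with 1 array left out. miR-1224 and miR-702 had -0.0738 and -0.0577 with the total signal, -0.41 and -0.39 without scaling, and -0.038 and -0.0853 with hur entries; miR-702 had -0.0928 with quantile normalization and -0.35 to 0.61 with 1 array left out. miR-877* had -0.11 without scaling. In young large against young small oocytes, miR-320 had 0.43 with the 75th percentile of all entries, 0.36 with the total signal, 0.0075 with quantile normalization, 0.22 with hur entries and -0.25 to 0.12 with 1 array left out. miR-1224 had 0.19 with the 75th percentile of all entries and 0.12 with the total signal. Without scaling miR-320 had 1.47, miR-1224 1.22, miR-702 and miR-484 0.75, and miR-877* 0.47; no small-oocyte array detected miR-484.

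The replicate numbers were not shown to pair the arrays: correlations of same-numbered deviations were 0.15, 0.03 and -0.16. With the replicate number as a block, 1 of the 5 was called in each comparison, miR-320 in the first and miR-877* in the second. With 1 array left out, the lone array of its group is assumed to vary like the others. A low signal over error limits miR-484, at 3.22 to 5.87 times its error over the 6 arrays. It also limits miR-320 in small oocytes, at 4.92 and 4.36 times. On young large array 1, miR-877* and miR-702 were called detected and fell under the floor after division by the factor of 1.94.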
